A study of Mus musculus with 64 samples.

Results

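The glucocorticoid receptor gene Nr3c1 and known targets of the receptor (Fkbp5, Tsc22d3, Zbtb16, Klf9, Sgk1, Ddit4, Fmo2, Mt1 and Mt2) were followed across the daily cycle in microglia, the resident macrophages of the brain. These 10 genes were taken by symbol from the 49671 genes of the count table. All 10 passed the filter on low counts in every comparison. Fkbp5, Zbtb16 and Fmo2 had been seen to be higher in day libraries before they were selected, so their day-night values are a description without a test, and the day-night tests concern the other 7 genes.

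Glucocorticoids are steroid hormones of the adrenal cortex whose release follows a daily rhythm and rises with stress. Their receptor waits in the cytoplasm in a complex with heat shock proteins. Once it has bound hormone it moves to the nucleus, where it binds palindromic response elements (GREs) and changes the transcription of its targets. In macrophages and microglia the receptor is best known for restraining inflammatory gene expression, and FKBP5, made from one of its targets, feeds back on the receptor by lowering its affinity for hormone.

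The series holds total RNA, depleted of ribosomal RNA, from 64 microglia libraries of adult male C57BL/6 mice (substrain N in the study's methods), with 32 libraries for either region, the hippocampus or the frontal cortex. Both were sampled under the labels Day and Night and under 4 condition labels (Soci, Cogn, Ctr0 and Ctr1), which gives 16 groups of 4 libraries. The cells were selected with magnetic beads against CD11b, an integrin that other myeloid cells, such as the macrophages at the borders of the brain, carry as well. The labels name no allele and no drug, do not explain the 4 conditions, and do not say whether each library comes from 1 animal, so the p-values measure the spread between libraries. The paper states that the mice lived on a reversed light-dark cycle and that microglia were taken in the light and in the dark phase. The labels do not say whether Day is the light phase or daytime outside the animal room. Day and Night are therefore used below as names only, and "by day" and "by night" refer to these labels.

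Library totals ran from 11615344 to 84472229 counts in the hippocampus (median 17649553) and from 10156071 to 26326521 in the frontal cortex (median 13417898). All 8 microglia markers were found in every library and summed to between 11172 and 23465 CPM, the unit of counts scaled to equal library size that is used for all levels below. Their summed medians were 15539 CPM by day and 13364 CPM by night in the hippocampus, and 17173 and 13897 CPM in the frontal cortex. Of these 8 markers, 7 rose by day in the hippocampus and 4 in the frontal cortex, and 0 fell. The clock gene Cry1 separated the phases in all 64 libraries: in the hippocampus it lay between 9.02 and 14.3 CPM by day and between 3.22 and 7.88 CPM by night, and in the frontal cortex between 8.66 and 16.2 CPM by day and between 3.15 and 6.87 CPM by night. Among the other clock genes read as phase references, Per2 had the higher median by day, and Nr1d1 and Arntl by night. Their hippocampal medians by day and night were 29.1 and 12.6 CPM (Per2), 4.05 and 14.7 CPM (Nr1d1) and 11.8 and 18.7 CPM (Arntl). In the frontal cortex they were 22.3 and 9.23, 4.05 and 12.3, and 12.4 and 17.8 CPM in the same order. Which label is the light phase was not tested. Markers of other cells moved with phase as well. The 7 border macrophage markers summed to a median of 333 CPM by day (197 to 425) and 167 CPM by night (99.6 to 220.3) in the hippocampus, and to 379 CPM by day (221 to 458) and 223 CPM by night (122 to 314) in the frontal cortex, and none of them was at 0 in any library. The 6 astrocyte markers had medians of 275 CPM (217 to 377) by day and 477 CPM (247 to 1690.4) by night in the hippocampus, and of 309 CPM (189 to 465) and 664 CPM (177 to 2226) in the frontal cortex. In bulk libraries of this kind, fewer cells of a type and less RNA per cell cannot be told apart.

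The promoters of these genes differ in the elements they carry. RefSeq promoter windows (GRCm38.p6, from 250 bases before to 50 bases after a transcript start) were read for 8 of the 10 genes. These 16 windows were searched on both strands. Zbtb16 had no window, and Nr3c1 was left out of this reading. A full GRE, searched as GNACA and TGTNC spaced by 3 bases, was found in 0.475% of 32851 promoters, the single GRE hexamer AGAACA in 19.0%, a metal response element (MRE, TGCACNC or TGCGCNC) in 25.7% and the E-box CACGTG in 7.15%. The full GRE letters were present in Sgk1, in 1 of its 6 windows, and in Mt1, and hexamers were present in Sgk1 (5), Fmo2 (1) and Tsc22d3 (1), of which 2 in Sgk1 lie across the full GRE. An E-box was found in Fkbp5 and in Sgk1. MREs, the elements through which zinc acts, were found in Mt2 (4), Mt1 (3), Sgk1 (1) and Ddit4 (1), and the Klf9 window held none of these motifs. A match is a description of letters and says nothing of binding. The sites below, 5′ to 3′ in the direction of the gene with the motif in capitals, give 1 example of an element for each of 6 genes.
Sgk1, full GRE, chr10:21993694-21993722, plus strand, 188 bases before the start: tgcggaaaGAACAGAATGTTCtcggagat
Mt1, full GRE, chr8:94178987-94179015, plus strand, 94 bases before the start: cactatagGGACATGATGTTCcacacgtc
Fmo2, GRE hexamer, chr1:162898601-162898630, minus strand, 125 bases before the start: tcgggacgccagAGAACAcaaccagctttg
Tsc22d3, GRE hexamer read on the other strand, chrX:140600690-140600719, minus strand, 185 bases before the start: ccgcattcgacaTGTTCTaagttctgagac
Fkbp5, E-box, chr17:28486301-28486330, minus strand, 169 bases before the start: gcaagggccagaCACGTGggcagcggtgaa
Mt2, MRE, chr8:94172479-94172507, plus strand, 128 bases before the start: cgcagacccttTGCGCTCagctcctttgc

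The first comparison set day against night libraries within each region, 16 against 16 with the conditions pooled. Of the 7 tested genes, 4 rose by day (Nr3c1, Tsc22d3, Sgk1 and Ddit4), 2 fell by day (Mt1 and Mt2) and Klf9 did not pass the test, in the hippocampus and in the frontal cortex alike. The background was high: 42.2% of 15527 genes in the hippocampus passed the same test (23.4% higher and 18.8% lower by day), and 41.8% of 14975 genes in the frontal cortex (20.6% higher and 21.3% lower). The median log2 change of the 7 genes was 0.24 in the hippocampus and 0.27 in the frontal cortex, against 0.023 and -0.018 over all genes tested. Scaling by library totals alone, without the composition factors of edgeR, shifted the median of all genes by -0.136 and -0.087 and turned the split of calls from 3637 higher and 2913 lower to 262 higher and 4031 lower in the hippocampus, and from 3083 and 3183 to 653 and 3412 in the frontal cortex. Changes in the text are relative to that composition scaling.

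**Figure D1:**
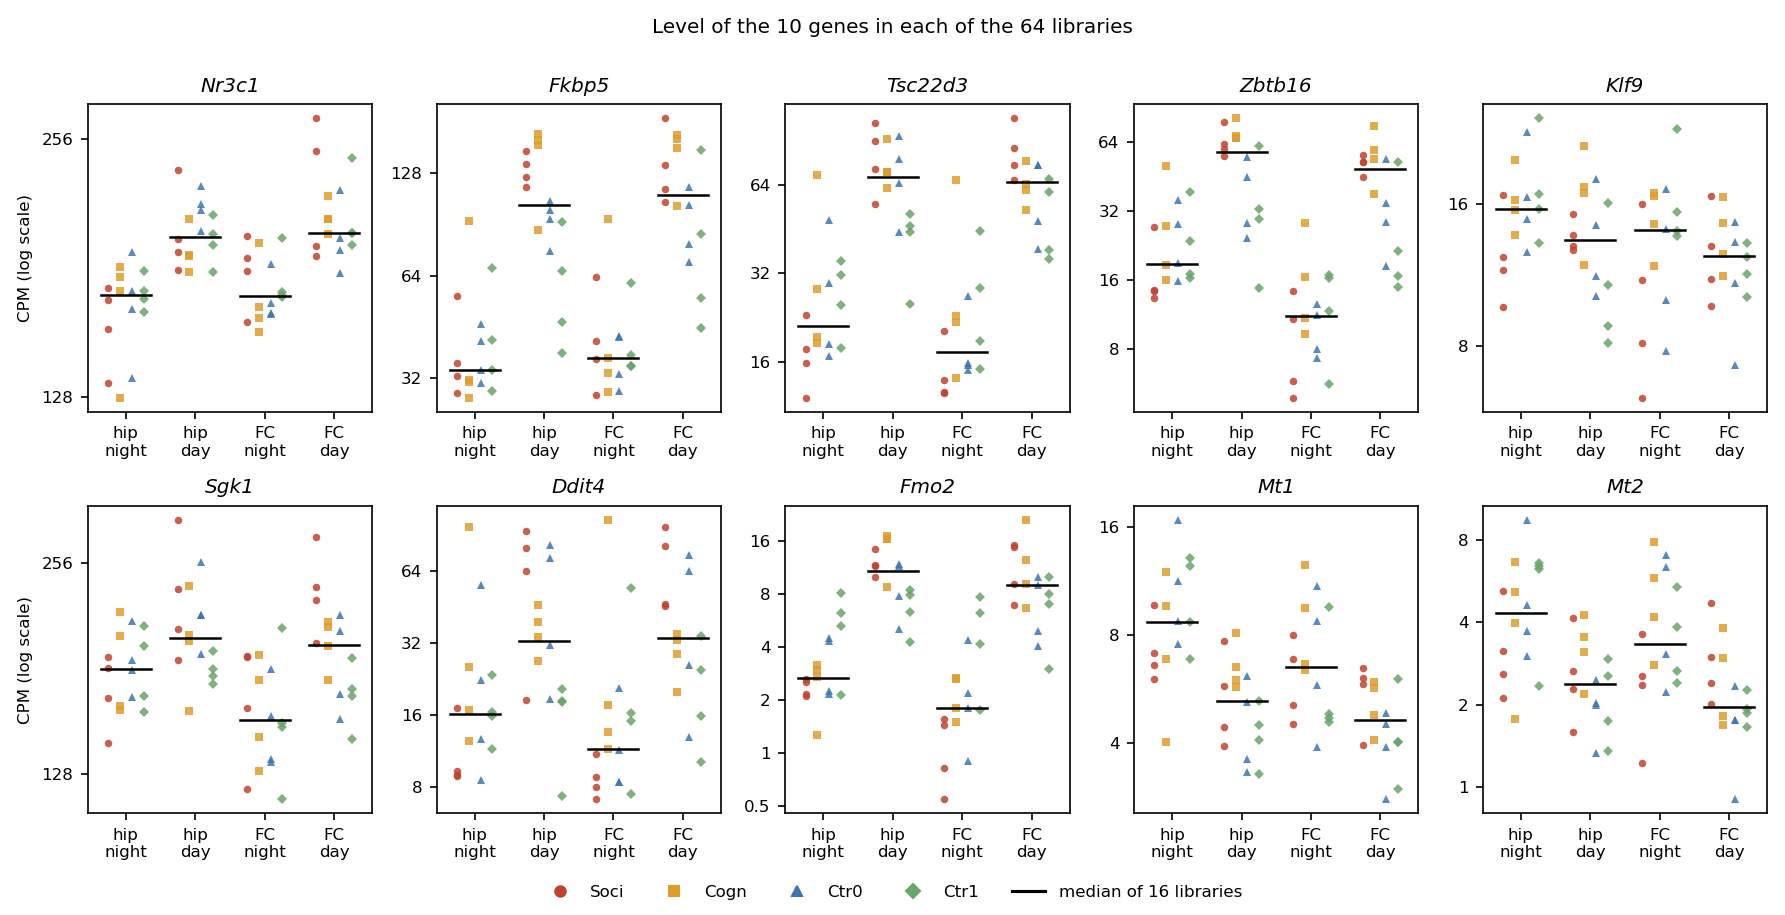
Level of each gene in each of the 64 libraries, in CPM on a log axis, by region and phase (hip, hippocampus; FC, frontal cortex). Symbols and colours stand for the 4 conditions and black lines for the median of 16 libraries. Fkbp5, Tsc22d3, Zbtb16 and Fmo2 sit higher by day, Mt1 and Mt2 lower, and a single Cogn library stands high among the night libraries of Fkbp5, Tsc22d3 and Ddit4 in both regions.

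Nr3c1 (chr18:39410545-39519421, minus strand) encodes the receptor itself and was among the more abundant and steadier of the 10 genes. In the hippocampus it ran from 179 to 236 CPM by day (median 197, n = 16) and from 128 to 189 CPM by night (median 168, n = 16). The frontal cortex had day values from 179 to 271 CPM (median 199) and night values from 152 to 197 CPM (median 168). All 16 day libraries of each region lay above the night median, and 10 of 16 lay above the highest night library. The receptor transcript rose by 0.32 ± 0.05 on the log2 scale (SE) in the hippocampus (edgeR adjusted p = 8.77e-06) and by 0.27 ± 0.05 in the frontal cortex (edgeR adjusted p = 0.000115). With library totals alone, the changes were 0.17 (adjusted p = 0.209) and 0.20 (adjusted p = 0.0607), so both calls were lost under that scaling.

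Fkbp5 (chr17:28399094-28517527, minus strand), the co-chaperone that closes the feedback loop on the receptor, was at 37.9 to 167.5 CPM by day in the hippocampus (median 103) and at 28.0 to 92.9 CPM by night (median 33.8). Frontal cortex levels were 44.9 to 186 CPM by day (median 110.4) and 28.6 to 93.9 CPM by night (median 36.6). The phases overlapped, although 10 day libraries in the hippocampus and 11 in the frontal cortex lay above the highest night library. The fitted day-night difference, given without a test, was 1.41 ± 0.19 in the hippocampus and 1.43 ± 0.18 in the frontal cortex on the log2 scale.

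Tsc22d3 (chrX:140539528-140600659, minus strand), which encodes the anti-inflammatory leucine zipper protein GILZ, had the largest day-night change of the 7 tested genes. Its day values in the hippocampus ran from 25.1 to 104 CPM (median 68.0) and its night values from 12.03 to 69.2 CPM (median 21.2). Those of the frontal cortex ran from 35.8 to 108 CPM by day (median 65.7) and from 12.5 to 66.5 CPM by night (median 17.3). All day libraries were above the night median, and 8 of 16 in each region were above the highest night library. Tsc22d3 rose by 1.36 ± 0.20 on the log2 scale in the hippocampus (edgeR adjusted p = 2.81e-06) and by 1.496 ± 0.205 in the frontal cortex (edgeR adjusted p = 1.38e-06).

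Zbtb16 (chr9:48654297-48836222, minus strand) encodes the zinc finger transcription factor PLZF. It stood at 14.7 to 81.2 CPM by day (median 57.9) and 13.4 to 50.3 CPM by night (median 18.8) in the hippocampus. In the frontal cortex it stood at 15.0 to 75.4 CPM by day (median 48.6) and 4.89 to 28.3 CPM by night (median 11.1). The day-night difference, again without a test, was 1.18 ± 0.21 in the hippocampus and 1.82 ± 0.23 in the frontal cortex on the log2 scale. Fmo2 (chr1:162874317-162898726, minus strand), a flavin-containing monooxygenase, had the largest difference of all 10 genes and, by night, the lowest level in CPM. It ran from 4.24 to 17.1 CPM by day (median 10.8) and from 1.27 to 8.10 CPM by night (median 2.66) in the hippocampus, and from 2.99 to 21.1 CPM by day (median 9.03) and from 0.54 to 7.69 CPM by night (median 1.80) in the frontal cortex. Its fitted differences were 1.71 ± 0.22 and 1.84 ± 0.29 on the log2 scale. For both genes the phases overlapped, with 10 to 12 of 16 day libraries above the highest night library.

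Klf9 (chr19:23141226-23168134, plus strand), a Krüppel-like transcription factor that is induced by glucocorticoids in many tissues, did not follow these genes. Its median in the hippocampus was 13.4 CPM by day (8.12 to 21.2) and 15.6 CPM by night (9.65 to 24.3), and in the frontal cortex 12.4 CPM by day (7.28 to 16.6) and 14.1 CPM by night (6.20 to 23.0). No day library exceeded the highest night library. The changes of -0.16 ± 0.12 (edgeR adjusted p = 0.316) and -0.13 ± 0.14 (edgeR adjusted p = 0.470) on the log2 scale had 95% intervals from -0.40 to 0.084 and from -0.40 to 0.14, which exclude a rise as large as that of Tsc22d3.

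Sgk1 (chr10:21882184-21999903, plus strand), a kinase that acts on ion channels and is an early target of the receptor, had the highest level of the 10 genes per exon length. In the hippocampus it ran from 157 to 295 CPM by day (median 200.2) and from 142 to 218 CPM by night (median 181). In the frontal cortex it ran from 144 to 279 CPM by day (median 196) and from 118 to 207 CPM by night (median 153). The phases overlapped widely. Sgk1 rose by 0.24 ± 0.07 on the log2 scale in the hippocampus (edgeR adjusted p = 0.00773) and by 0.30 ± 0.08 in the frontal cortex (edgeR adjusted p = 0.00447). The call was lost in the hippocampus without the libraries numbered 1 (0.16) or 2 (0.19), in the frontal cortex without those numbered 1 (0.23), and in both regions with library totals alone (0.080 and 0.22).

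Ddit4 (chr10:59949669-59951834, minus strand), the mTORC1 inhibitor also called REDD1, had the largest spread between libraries of the same group. Day values in the hippocampus ran from 7.40 to 93.5 CPM (median 32.6) and night values from 8.59 to 97.5 CPM (median 16.2). Frontal cortex day values ran from 10.2 to 97.1 CPM (median 33.6) and night values from 7.13 to 104 CPM (median 11.5). The highest Ddit4 library of each region was a night library, yet 15 of 16 day libraries in each lay above the night median. Ddit4 rose by 0.92 ± 0.35 on the log2 scale (edgeR adjusted p = 0.0335) in the hippocampus and by 1.00 ± 0.37 (edgeR adjusted p = 0.0288) in the frontal cortex. Its call depended on the replicates. It was lost in both regions without the libraries numbered 1 (0.77 and 0.73), 2 (0.77 and 0.85) or 4 (0.63 and 0.89), whereas without those numbered 3 the change was 1.43 and 1.75.

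The metallothionein genes Mt1 (chr8:94179082-94180327, plus strand) and Mt2 (chr8:94172664-94173568, plus strand), whose products bind zinc and copper, went the other way. Mt1 in the hippocampus was at 3.27 to 8.07 CPM by day (median 5.21) and at 4.02 to 16.7 CPM by night (median 8.70), and in the frontal cortex at 2.78 to 6.47 CPM by day (median 4.64) and at 3.89 to 12.5 CPM by night (median 6.49). Mt2 in the hippocampus was at 1.33 to 4.25 CPM by day (median 2.37) and at 1.78 to 9.45 CPM by night (median 4.31), and in the frontal cortex at 0.90 to 4.69 CPM by day (median 1.97) and at 1.22 to 7.86 CPM by night (median 3.33). All 16 day libraries of both regions lay below the night median of Mt1. By day Mt1 fell by 0.78 ± 0.16 on the log2 scale in the hippocampus (edgeR adjusted p = 0.000146) and by 0.58 ± 0.16 in the frontal cortex (edgeR adjusted p = 0.00340). Mt2 fell by 0.81 ± 0.21 (edgeR adjusted p = 0.00197) and by 0.79 ± 0.22 (edgeR adjusted p = 0.00488). An antisense gene, Gm45774, covers 432 of the 588 exon bases of Mt2, and since the strand setting of the counting is not given in the sources used here, reads of the pair cannot be told apart.

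These changes moved together with the markers of other cells. All 7 border macrophage markers rose by day in the hippocampus and 6 of 7 in the frontal cortex, and all 6 astrocyte markers fell by day in both regions. In the hippocampus 7 of 8 endothelial, 5 of 6 oligodendrocyte and all 6 choroid plexus markers fell by day. In the frontal cortex 1 of 8, 3 of 6 and 0 of 4 tested did. The microglia markers had a median log2 change of 0.29 in the hippocampus and 0.23 in the frontal cortex. No fit held the microglia markers as a covariate. With the border macrophage score of each library (the mean centred log2 CPM of its markers) as a covariate, 0 of the 7 tested genes passed the edgeR test in either region, and calls over all genes went from 6550 to 649 in the hippocampus and from 6266 to 1297 in the frontal cortex. In that fit Tsc22d3 stood at 0.49 (adjusted p = 0.353) and 0.76 (adjusted p = 0.0575) on the log2 scale, Nr3c1 at 0.11 and 0.21, and Ddit4 at -0.33 and -0.18, so the sign of Ddit4 turned, as did that of Sgk1 in the hippocampus (-0.017). Fkbp5, Zbtb16 and Fmo2 were still higher by day in it, with 0.80, 1.22 and 1.62 in the hippocampus and 0.90, 1.37 and 1.43 in the frontal cortex. With the astrocyte score as a covariate, Mt1 stood at -0.10 (adjusted p = 0.625) and -0.0067 (adjusted p = 0.980), Mt2 turned to 0.17 and 0.14, and 2 of the 7 tested genes passed in each region. The scores differ with phase themselves, and their part in the changes was not tested.

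No gene separated the phases completely, which 0.444% of genes tested did in the hippocampus and 0.361% in the frontal cortex. When the 16 group means were ordered, the 8 day groups were the highest 8 for Nr3c1, Fkbp5, Tsc22d3 and Fmo2. Day groups made up 7 of the highest 8 for Zbtb16, 6 for Sgk1, 6 for Ddit4, 3 for Klf9 and 1 each for Mt1 and Mt2. Neighbours in these orders hardly ever stood apart: of 15 neighbouring pairs, only 1 for Fkbp5 and 1 for Fmo2 differed by more than the larger of their SDs, and 0 for each of the other 8 genes. Per kilobase of exon, mean levels in hippocampal night libraries fell from 36.7 CPM per kb for Sgk1 and 21.2 for Nr3c1 through 12.96 for Ddit4, 7.75 for Mt2, 7.38 for Mt1, 6.14 for Tsc22d3, 4.45 for Zbtb16, 4.36 for Fkbp5 and 3.28 for Klf9 to 0.61 for Fmo2. By day, Fkbp5 at 11.3 and Tsc22d3 at 15.4 CPM per kb stood above both metallothioneins, which were then at 4.18 (Mt1) and 4.27 (Mt2).

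The 16 groups showed where the day values were highest. Fkbp5 was highest in frontal cortex Day Cogn, with 145 ± 29.0 CPM (SD, n = 4), followed by hippocampus Day Cogn with 143 ± 37.3 CPM. Day Soci followed with 135 ± 35.8 CPM in the frontal cortex and 132 ± 14.1 CPM in the hippocampus. The control labels were lower by day, with 92.5 ± 21.3 CPM (Ctr0) and 83.8 ± 47.4 CPM (Ctr1) in the frontal cortex and 93.9 ± 13.3 CPM (Ctr0) and 60.8 ± 23.9 CPM (Ctr1) in the hippocampus. All 8 night groups of Fkbp5 lay between 36.8 and 48.3 CPM. The Soci day libraries of the hippocampus (117 to 149 CPM) all lay above those of Ctr0 (75.5 to 106 CPM) and Ctr1 (37.9 to 92.0 CPM), while the Cogn range (87.2 to 167.5 CPM) overlapped both. Frontal cortex day ranges overlapped, since Ctr1 ran from 44.9 to 150.1 CPM there. The share of all genes with groups set apart as Fkbp5 was in the hippocampus was not counted.

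Tsc22d3 was highest in Day Soci, at 83.9 ± 18.05 CPM in the frontal cortex and 80.7 ± 21.4 CPM in the hippocampus, and lowest in Night Soci, at 14.8 ± 3.7 CPM and 17.1 ± 4.6 CPM. Ddit4 had the same extremes. In the hippocampus its Day Soci libraries were at 93.5, 79.6, 18.5 and 64.1 CPM, and its Night Soci libraries at 8.90, 9.04, 17.1 and 9.35 CPM. In the frontal cortex Ddit4 was at 81.1, 97.1, 45.7 and 46.7 CPM in Day Soci and at 8.86, 7.13, 11.01 and 8.04 CPM in Night Soci. The Soci libraries of the phases did not overlap in either region, by a narrow margin in the hippocampus (18.5 against 17.1 CPM). The share of all genes without overlap between groups this small was not counted. Ddit4 in Ctr1 had close means instead, 16.1 ± 5.9 CPM by day and 16.9 ± 5.0 CPM by night in the hippocampus, and 21.3 ± 10.5 and 23.3 ± 20.98 CPM in the frontal cortex.

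A single replicate number stood apart in Night Cogn. Ddit4 in hippocampus Night Cogn was at 16.8, 25.5, 97.5 and 12.5 CPM in replicates 1 to 4, and in frontal cortex Night Cogn at 13.6, 17.6, 104 and 11.6 CPM. Fkbp5 in the same libraries was at 31.2, 31.7, 92.9 and 28.0 CPM in the hippocampus and at 29.1, 33.3, 93.9 and 36.7 CPM in the frontal cortex. Tsc22d3 was at 18.4, 28.3, 69.2 and 19.4 CPM and at 14.0, 21.8, 66.5 and 22.8 CPM. Replicate 3 was thus about as high as a day library for these genes in both regions. Its Cry1 level stayed within the night range but toward its top, at 7.21 CPM in the hippocampus and 6.87 CPM in the frontal cortex. The frontal cortex value was the highest of the night libraries. Its Nr1d1 level was the lowest of the night libraries in each region, at 5.12 and 5.56 CPM. These Nr1d1 values lay inside the day range, which reached 7.58 and 5.61 CPM. Arntl (25.96 and 24.37 CPM) and Per2 lay instead within the night range and outside the day range in both regions. Read against the day and night ranges alone, the phase references thus did not all point to the same label. The clock time of this replicate was not tested. The border macrophage markers of replicate 3 summed to 220.3 CPM in the hippocampus, the highest night value, and 233 CPM in the frontal cortex. Zbtb16 and Fmo2 did not stand apart there in the hippocampus (27.4 and 2.98 CPM). In the frontal cortex, Zbtb16 of replicate 3 was at 28.3 CPM, the highest of the night libraries, where the mean of its group was 16.3 CPM. Fmo2 in that group ran from 1.49 to 2.65 CPM. Without all libraries numbered 3, the day-night values were 1.72 and 1.70 for Fkbp5 and 1.64 and 1.83 for Tsc22d3 in the hippocampus and the frontal cortex on the log2 scale.

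Fmo2 and Zbtb16 were highest in hippocampus Day Cogn, with 14.7 ± 3.9 and 70.7 ± 7.0 CPM, and lowest in frontal cortex Night Soci, with 1.09 ± 0.49 and 8.97 ± 4.4 CPM. Sgk1 ran from 235 ± 34.2 CPM in frontal cortex Day Soci to 151 ± 22.3 CPM in frontal cortex Night Ctr0, and Nr3c1 from 224 ± 41.5 CPM in frontal cortex Day Soci to 156 ± 17.2 CPM in hippocampus Night Soci. Mt1 was highest in hippocampus Night Ctr0 (11.1 ± 4.1 CPM) and Mt2 in hippocampus Night Ctr1 (5.40 ± 2.1 CPM), and both were lowest in frontal cortex Day Ctr0 (4.00 ± 0.91 and 1.69 ± 0.59 CPM). Klf9 ran only from 17.5 ± 4.8 CPM in hippocampus Night Ctr1 to 10.3 ± 4.3 CPM in frontal cortex Night Soci.

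The fits with 8 phase and condition means per region asked whether the conditions differed and whether they differed in their day-night change. For the conditions averaged over phase, 0 of the 10 genes passed the edgeR test in either region, as did 0.0% of 16826 genes in the hippocampus and 0.0% of 16238 in the frontal cortex. At an unadjusted edgeR p under 0.05 there were 2 of the 10 in the hippocampus (Fkbp5 and Ddit4) and 1 in the frontal cortex (Zbtb16). Over all genes, 1090 of 16826 and 1094 of 16238 were under that threshold. DESeq2 called 0 of the 10 in each. With library totals alone, 4 of the 10 passed in the hippocampus (Fkbp5, Zbtb16, Sgk1 and Ddit4, with adjusted p from 0.0441 to 0.0459), together with 3862 of 16826 genes.

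For the day-night change by condition, 0 of the 7 tested genes passed the edgeR test in either region, against 0.0% of all genes in the hippocampus and 0.00616% in the frontal cortex. At an unadjusted p under 0.05 there were 3 of 7 in the hippocampus (Tsc22d3, Ddit4 and Mt1) and 3 of 7 in the frontal cortex (Tsc22d3, Ddit4 and Mt2), and DESeq2 called 0. Over all genes, 695 of 16826 in the hippocampus and 603 of 16238 in the frontal cortex were under that unadjusted threshold. Among the 7 genes, the smallest unadjusted edgeR p was 0.00161, for Ddit4 in the frontal cortex. Ddit4 differed by day from night by 2.58 ± 0.60 in Soci, -0.017 ± 0.57 in Cogn, 1.09 ± 0.58 in Ctr0 and -0.019 ± 0.60 in Ctr1 on the log2 scale in the hippocampus. In the frontal cortex the values were 2.96 ± 0.65, -0.34 ± 0.60, 1.82 ± 0.62 and -0.12 ± 0.61 in the same order. Tsc22d3 was at 2.28 ± 0.37, 1.18 ± 0.36, 1.36 ± 0.36 and 0.66 ± 0.36 in the hippocampus and at 2.51 ± 0.37, 1.04 ± 0.36, 1.68 ± 0.36 and 0.92 ± 0.36 in the frontal cortex. Both genes had their largest day-night value in Soci in both regions.

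Fkbp5, as a description, was at 1.83 ± 0.33, 1.68 ± 0.32, 1.35 ± 0.32 and 0.55 ± 0.32 in Soci, Cogn, Ctr0 and Ctr1 of the hippocampus on the log2 scale, and at 1.68 ± 0.34, 1.59 ± 0.34, 1.33 ± 0.34 and 1.00 ± 0.34 in the frontal cortex. Fmo2 was at 2.39 ± 0.33, 2.57 ± 0.33, 1.51 ± 0.33 and 0.38 ± 0.33 in the hippocampus and at 3.44 ± 0.50, 2.51 ± 0.47, 1.63 ± 0.46 and 0.49 ± 0.44 in the frontal cortex. The smallest value of both genes was that of Ctr1 in both regions. For Mt2 the value was close to 0 in Soci of the hippocampus (-0.23) and above 0 in Soci of the frontal cortex (0.33), and between -0.39 and -1.43 in the other conditions.

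**Figure D2:**
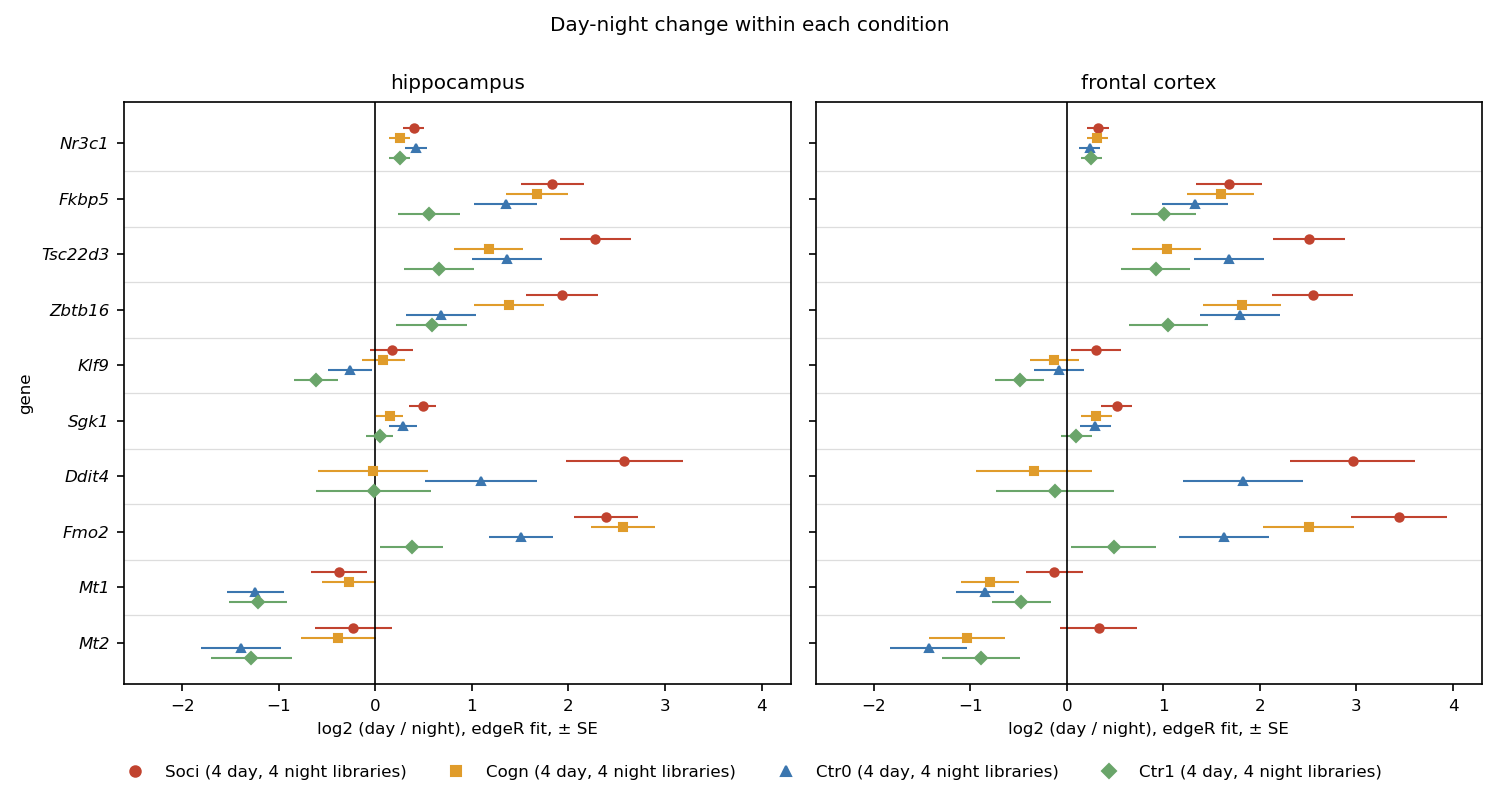
Day-night difference of each gene within each condition, as log2 (day / night) from the edgeR fit with its SE, 4 day against 4 night libraries, for the hippocampus and the frontal cortex. The Ddit4 values spread from near 0 in Cogn and Ctr1 to 2.58 and 2.96 in Soci, and Ctr1 lies lowest for Fkbp5 and Fmo2. For Fkbp5, Zbtb16 and Fmo2 the values are a description.

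The regions were compared over all 64 libraries, in a fit that did not pair the libraries of the same number. The labels do not say whether such libraries share an animal. If they do, the results of the regions are not independent of each other. Zbtb16 was the only 1 of the 10 genes that differed, being higher in the hippocampus by 0.65 ± 0.16 on the log2 scale (edgeR adjusted p = 0.00221), where 16.6% of 16069 genes passed. The difference was 0.99 ± 0.23 among night libraries (edgeR adjusted p = 0.00114), where 13.9% of genes passed, and 0.30 ± 0.22 among day libraries (edgeR adjusted p = 0.579), where 0.00622% did. The group means of Zbtb16 in night libraries were 17.4 to 28.1 CPM in the hippocampus and 8.97 to 16.3 CPM in the frontal cortex. Whether its day-night difference itself differs between regions was not tested, since Zbtb16 was chosen on that difference, and the fitted value was -0.68 ± 0.32. With the choroid plexus score as a covariate, 0 of the 10 genes passed the edgeR test, and the Zbtb16 difference was 0.52 ± 0.21 (adjusted p = 0.204), close to its size without the score but with a larger SE. The choroid plexus markers, which had medians of 264 CPM by day and 1617 CPM by night in the hippocampus and of 22.7 and 87.7 CPM in the frontal cortex, differed between the regions, and their part in the Zbtb16 value was not tested.

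For the other 9 genes the regional differences ran from -0.073 (Nr3c1) to 0.27 ± 0.11 (Mt1, edgeR adjusted p = 0.0876). For the day-night change by region, 0 of the 7 tested genes passed the edgeR test, against 1.19% of all genes, and DESeq2 called 0. At an unadjusted edgeR p under 0.05 there were 0 of the 7, beside 1587 of 16069 genes. The lowest adjusted p was 0.809.

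Within a group of 4 libraries the 10 genes varied to very different degrees. After the group means were removed, Ddit4 had an SD of 0.88 on the log2 scale in the hippocampus and 0.89 in the frontal cortex. This was above the SD of 99.6% and 99.8% of the genes with a mean log2 CPM of at least 2. These 11022 and 10872 genes are the reference set of all percentages in this paragraph. Zbtb16 (0.55 and 0.61), Mt2 (0.59 and 0.56), Fmo2 (0.51 and 0.70), Tsc22d3 (0.53 in both) and Fkbp5 (0.47 and 0.50) were each above at least 91.0% of genes in both regions. Nr3c1 was at 0.15 in both, which only 32.7% and 31.8% of genes fell below, and the SD of every target was larger in both regions. The median SD was 0.18 in both regions for the reference set, and 0.25 and 0.27 over all 17140 genes. Low counts can add to the spread of Fmo2 and of the metallothioneins, and how much they add was not tested.

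These deviations from the group means were then correlated between the genes over the 32 libraries of each region, with permutations of libraries within groups and a Benjamini-Hochberg adjustment over the 90 pairs. Of 45 pairs, 9 passed in the hippocampus (8 positive and 1 negative) and 12 in the frontal cortex (11 positive and 1 negative), and 6 pairs passed in both regions. At an unadjusted p under 0.05 there were 12 and 19 pairs. The median r over the 45 pairs was 0.13 and 0.080, against -0.0076 and -0.017 over all pairs of genes tested. The share of all pairs of genes that would pass the same test was not counted. The sign of r was the same in both regions for 36 of the 45 pairs.

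Tsc22d3, Ddit4 and Fkbp5 went together. Tsc22d3 and Ddit4 had r = 0.90 in the hippocampus (Spearman's rho = 0.87, adjusted permutation p = 0.00018 for r) and r = 0.92 in the frontal cortex (rho = 0.87, adjusted permutation p = 0.00018). Without the 2 libraries farthest from the median of Tsc22d3, r was 0.85 and 0.86. Fkbp5 and Tsc22d3 had r = 0.75 in both regions (rho = 0.75 and 0.66, adjusted permutation p = 0.00018 and 0.00296), and 0.65 in both without the 2 farthest libraries. Fkbp5 and Ddit4 had r = 0.62 and 0.69 (rho = 0.63 and 0.60, adjusted permutation p = 0.00330 and 0.00603), and 0.55 and 0.57 without the 2 farthest. The night Cogn library numbered 3 was at the upper end of all of these relations, as the plot of deviations shows. Adjusted for the 4 marker scores and the library total, r of Tsc22d3 with Ddit4 was 0.87 and 0.91, and r of Fkbp5 with Tsc22d3 was 0.67 and 0.80.

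Mt1, Mt2 and Klf9 formed a further set. Mt1 and Mt2 had r = 0.79 in the hippocampus (rho = 0.72, adjusted permutation p = 0.00060) and 0.81 in the frontal cortex (rho = 0.82, adjusted permutation p = 0.00018), and 0.72 and 0.77 without the 2 farthest libraries. Klf9 and Mt2 had r = 0.51 and 0.85 (rho = 0.48 and 0.84, adjusted permutation p = 0.0384 and 0.00018), and 0.51 and 0.83 without the 2 farthest. Adjusted for the marker scores and the total, r of Mt1 with Mt2 was 0.28 and 0.40, and r of Klf9 with Mt2 was 0.65 and 0.59. In the frontal cortex alone, Klf9 also passed with Mt1 (r = 0.69, rho = 0.73, adjusted permutation p = 0.00330, 0.69 without the 2 farthest) and with Fmo2 (r = 0.63, rho = 0.69, adjusted permutation p = 0.00742, 0.65 without the 2 farthest), and these were 0.23 and 0.096 after the adjustment for scores. Whether r differs between the regions was not tested.

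The receptor transcript covaried with Zbtb16 in both regions and with Sgk1 in the hippocampus. Nr3c1 and Zbtb16 went in opposite directions, with r = -0.50 in the hippocampus (rho = -0.38, adjusted permutation p = 0.0498) and -0.48 in the frontal cortex (rho = -0.48, adjusted permutation p = 0.0370), and -0.38 and -0.50 without the 2 farthest libraries. By rho, the adjusted permutation p of this pair was 0.139 and 0.0508. With Fkbp5, Nr3c1 had r = 0.056 in the hippocampus, which did not pass (rho = 0.0092, adjusted permutation p = 0.895, 0.00049 without the 2 farthest). Sgk1 passed in the hippocampus with Nr3c1 (r = 0.59, rho = 0.60, adjusted permutation p = 0.0125, 0.56 without the 2 farthest) and with Tsc22d3 (r = 0.59, rho = 0.54, adjusted permutation p = 0.00605, 0.52 without the 2 farthest). Fmo2 and Fkbp5, both higher by day, had an r of only 0.048 in the hippocampus (rho = 0.11, adjusted permutation p = 0.895, -0.087 without the 2 farthest) and 0.080 in the frontal cortex (rho = 0.0026, adjusted permutation p = 0.793, -0.0078 without the 2 farthest). After the adjustment for marker scores and total, r of this pair was 0.48 and 0.75.

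**Figure D3:**
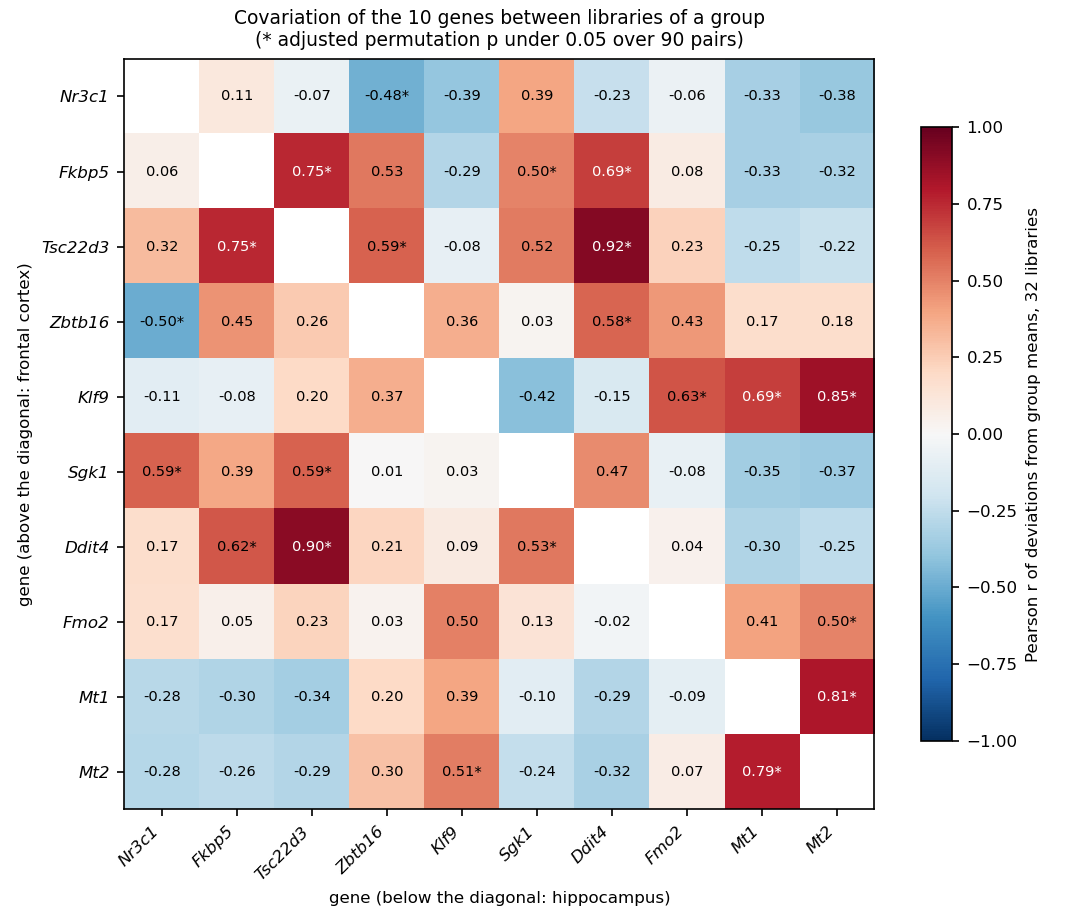
Pearson r of the deviations from group means for each pair of the 10 genes over 32 libraries, hippocampus below the diagonal and frontal cortex above it. Stars mark pairs with an adjusted permutation p under 0.05 over 90 pairs, 9 in the hippocampus and 12 in the frontal cortex. Fkbp5, Tsc22d3 and Ddit4 form one block of positive values and Klf9, Mt1 and Mt2 another.

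**Figure D4:**
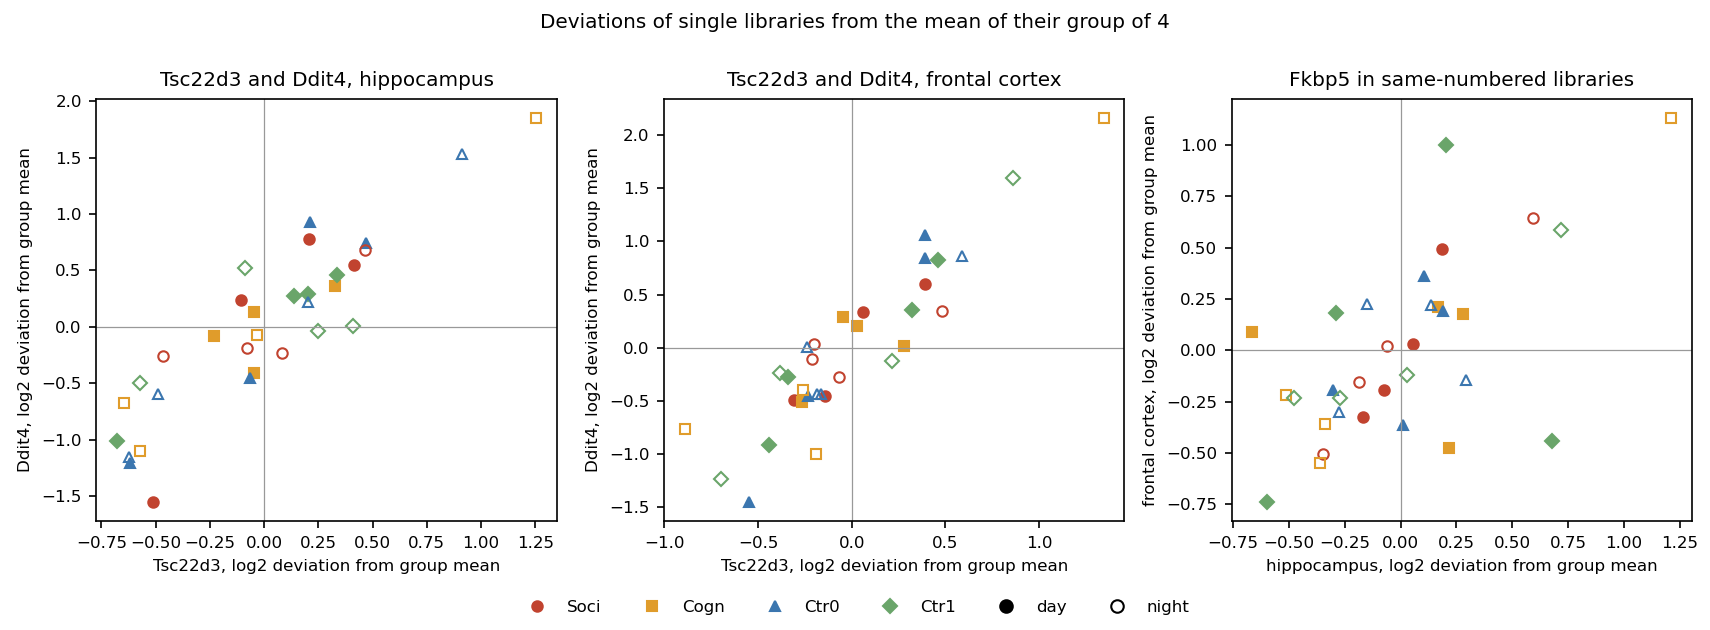
Deviation of single libraries from the mean of their group on the log2 scale. The left and middle panels plot Ddit4 against Tsc22d3 in each region (r = 0.90 and 0.92) and the right panel plots Fkbp5 in the frontal cortex against Fkbp5 in the hippocampal library with the same labels and number (r = 0.63). Symbols stand for conditions, filled for day and open for night, and the open Cogn square at the upper right of each panel is replicate 3.

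The same deviations were set against the marker scores, 100 pairs of a gene with a score or the library total, adjusted together. The metallothioneins followed the astrocyte score in both regions, Mt1 with r = 0.80 and 0.74 (rho = 0.75 and 0.74, adjusted permutation p = 0.00050 and 0.00075, 0.78 and 0.64 without the 2 farthest) and Mt2 with r = 0.85 and 0.89 (rho = 0.84 and 0.90, adjusted permutation p = 0.00067 and 0.00050, 0.82 and 0.87 without the 2 farthest). Klf9 followed the endothelial score with r = 0.62 and 0.82 (rho = 0.62 and 0.79, adjusted permutation p = 0.0230 and 0.00080, 0.63 and 0.78 without the 2 farthest). Tsc22d3 followed the border macrophage score with r = 0.55 and 0.61 (rho = 0.54 and 0.63, adjusted permutation p = 0.0230 and 0.0266, 0.51 and 0.65 without the 2 farthest). Fmo2 with the endothelial score had r = 0.55 in the hippocampus (rho = 0.55, adjusted permutation p = 0.0517, 0.61 without the 2 farthest) and 0.66 in the frontal cortex (rho = 0.66, adjusted permutation p = 0.0101, 0.67 without the 2 farthest). Some genes passed with more than 1 score. Klf9 passed with the astrocyte score as well in the frontal cortex (r = 0.74, rho = 0.76, adjusted permutation p = 0.00100, 0.74 without the 2 farthest), as did Mt2 with the endothelial score (r = 0.65, rho = 0.72, adjusted permutation p = 0.0154, 0.63 without the 2 farthest) and Fmo2 with the choroid plexus score (r = 0.55, rho = 0.58, adjusted permutation p = 0.0257, 0.49 without the 2 farthest). Nr3c1 passed with the border macrophage score in the hippocampus (r = 0.60, rho = 0.57, adjusted permutation p = 0.0196, 0.57 without the 2 farthest). Fkbp5 was lower where the endothelial score was higher in the hippocampus (r = -0.55, rho = -0.48, adjusted permutation p = 0.0421, -0.43 without the 2 farthest).

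Across regions, the hippocampal and frontal cortex libraries with the same phase, condition and number made 32 pairs, although the labels do not say that such libraries share an animal. Fmo2 (r = 0.60, rho = 0.50, adjusted permutation p = 0.0338 over the 10 genes), Fkbp5 (r = 0.63, rho = 0.55, adjusted permutation p = 0.0445) and Tsc22d3 (r = 0.58, rho = 0.44, adjusted permutation p = 0.0445) deviated together across the regions. Without the 2 farthest pairs r was 0.50, 0.44 and 0.35. By rho, the adjusted permutation p of the same 3 genes was 0.0559, 0.0559 and 0.105, and without the pairs numbered 1, 2 or 3 in turn 0 of the 10 genes passed. The other 7 genes ran from -0.13 (Klf9) to 0.40 (Ddit4). Over 14917 genes the median r was 0.090 and the 95th percentile 0.432.

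The genes whose deviations were most like those of 3 members were ranked by the smaller r of the regions over 10778 genes, as a description over 32 libraries a region that share depth and marker scores. For Fkbp5 these were Jade2 (0.84 in the hippocampus and 0.87 in the frontal cortex), Rnf169 (0.84 and 0.89), Lifr (0.82 and 0.94), Sult1a1 (0.78 and 0.87) and Rassf2 (0.78 and 0.86). Tsc22d3 ranked 10 and Ddit4 ranked 30 in that order, while Nr3c1 ranked 3929 and Fmo2 ranked 4041. For Sgk1 they were Ccl9 (0.79 and 0.77), Rhob (0.85 and 0.75), Ywhah, Kcnk6 and Cd14 (0.81 and 0.73). In the order for Sgk1, Tsc22d3 ranked 422, Ddit4 ranked 725, Nr3c1 ranked 1291 and Fkbp5 ranked 1352. For Mt1 they included Tmcc2 (0.81 and 0.82), Rbfox2 (0.80 in both), Mt3 and Htra1, and Klf9 ranked 825.

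Other genes of the pathway were read from lists, which were drawn up with earlier results of these data known. Among 24 other known targets of the receptor, 22 were tested, of which 10 rose and 3 fell by day in each region, with a median log2 change of 0.12 in the hippocampus and 0.20 in the frontal cortex, against 0.023 and -0.018 over all genes tested. Over all genes, 23.4% rose and 18.8% fell in the hippocampus, and 20.6% rose and 21.3% fell in the frontal cortex. The sulfotransferase gene Sult1a1 rose by 1.15 ± 0.15 and 1.17 ± 0.15 on the log2 scale (edgeR adjusted p = 1.69e-07 and 4.41e-07). Pdk4, a kinase that restrains pyruvate oxidation and a classical target, fell by 1.29 ± 0.19 and 1.15 ± 0.25 (edgeR adjusted p = 2.31e-06 and 0.000479). Mertk, a receptor for apoptotic cells, rose by 0.32 ± 0.05 and 0.23 ± 0.05, and the transcription factor genes Cebpd (0.31 ± 0.07 and 0.48 ± 0.08) and Bcl6 (0.34 ± 0.06 and 0.29 ± 0.06) rose as well.

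The chaperones that hold the receptor ready for hormone had the largest median change of the 6 lists in both regions. Of 12, 10 rose and 1 (Stub1) fell in the hippocampus, and 9 rose and 0 fell in the frontal cortex, with medians of 0.60 and 0.70 against 0.023 and -0.018 over all genes. Hspa8 rose by 1.36 ± 0.08 and 1.503 ± 0.0998, Hsp90ab1 by 0.96 ± 0.07 and 1.11 ± 0.08, and Stip1, which passes clients from HSP70 to HSP90, by 0.80 ± 0.07 and 0.98 ± 0.07 on the log2 scale. Of 11 cofactors of the receptor, 8 rose and 0 fell in the hippocampus, and 8 rose and 1 (Hdac3) fell in the frontal cortex, beside the 23.4% and 20.6% of all genes that rose. The list's median was 0.26 and 0.14, and the cofactors that rose included Nrip1 (0.53 and 0.47), Ncoa3 (0.33 and 0.29) and Ep300 (0.32 and 0.26).

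Of 7 genes of steroid handling, 4 were tested, and only Nr3c2, which encodes the mineralocorticoid receptor, passed, falling by 0.39 ± 0.13 on the log2 scale in the hippocampus (edgeR adjusted p = 0.0129). The frontal cortex had 0 of 4 past the edgeR test and 0 at an unadjusted p under 0.05, and DESeq2 called 0 there. Of the 6 zinc and metallothionein genes other than Mt1 and Mt2, the zinc sensor gene Mtf1 rose by 0.29 ± 0.04 in the hippocampus and 0.29 in the frontal cortex, whereas Mt3, the metallothionein gene of neurons and astrocytes, fell by 1.46 ± 0.19 and 1.27 ± 0.28. Of 6 genes of the integrated stress response, the program that also drives Ddit4, 4 were tested, and Atf4 rose in both regions (0.23 and 0.27) while Asns fell in the hippocampus (-0.56 ± 0.19). By region, the mineralocorticoid receptor gene Nr3c2 was higher in the hippocampus by 0.48 ± 0.08.

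**Figure D5:**
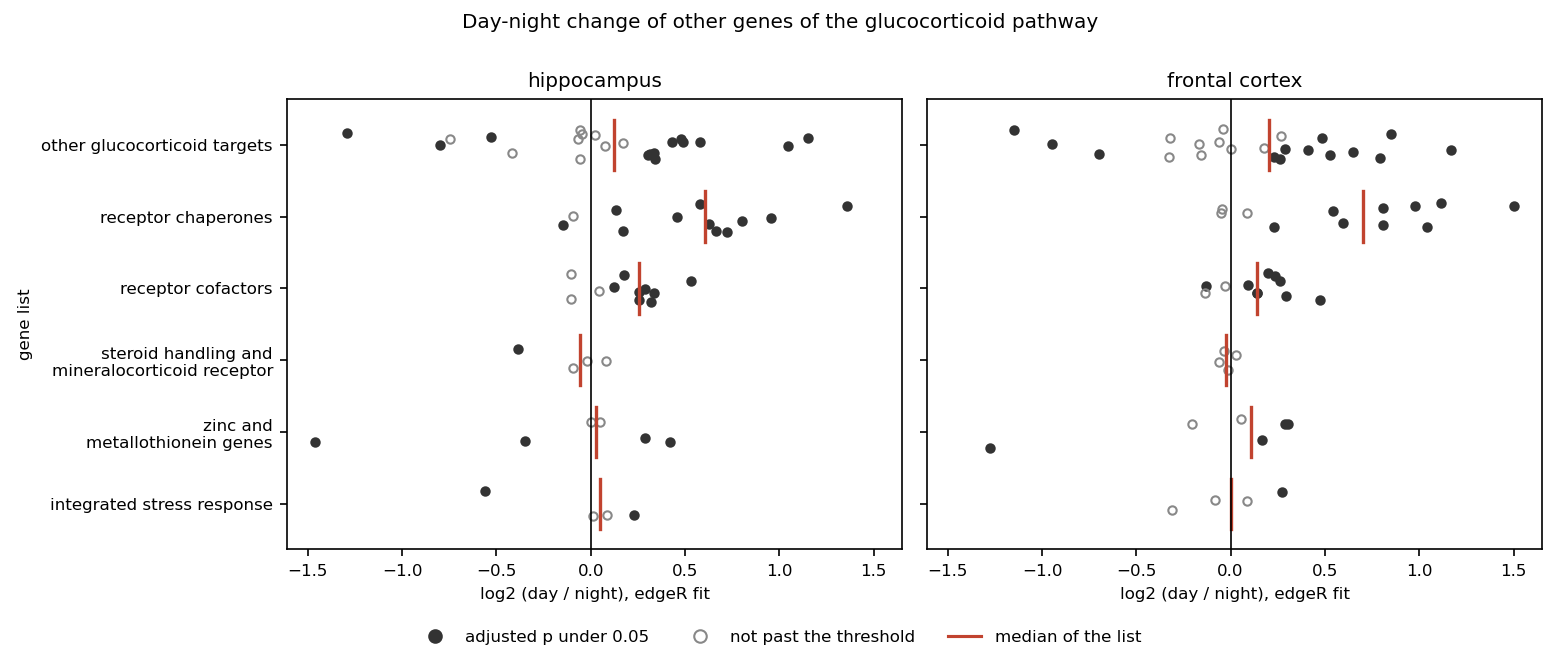
Day-night change, log2 (day / night), of each tested gene of the 6 pathway lists in the hippocampus and the frontal cortex. Filled points passed the edgeR test at an adjusted p under 0.05, open points did not, and red bars mark the median of each list. The chaperones lie highest, with medians of 0.60 and 0.70.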

How the data were processed

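Gene counts were deposited by the authors for 64 libraries made from CD11b-selected microglia with rRNA depletion and the NEBNext Ultra II kit. The submitters' processing notes name STAR 2.7.3a, featureCounts of Subread 2.0.0 and GRCm38.p5, and the handling of strand and of multimapping reads is not given in the sources used here. Groups came from the sample titles. The 10 genes and the gene lists were chosen with earlier results of these data known, and the symbols of 49412 of 49671 gene identifiers matched GENCODE M21.

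Whole-number counts were used as deposited. CPM values were scaled with edgeR's TMM factors (edgeR 4.0.16, limma 3.58.1, R 4.3.3). Genes were filtered with filterByExpr and tested with glmQLFit and glmQLFTest, with Benjamini-Hochberg adjustment over all genes tested and a threshold of 0.05, and the SE was taken as the size of the log2 change divided by the root of F. The day-night fits held 2 phase means per region, as the study pooled the conditions, the condition fits 8 means per region, and the region fits 4 means over all libraries. Correlations used log2 CPM (prior count 2) minus the group mean, with 100000 permutations within groups, of which the smallest possible p is 1e-05 before adjustment (scipy 1.17.1, Python 3.11.15). Intervals of log2 changes are 1.96 SE wide on each side and cover the spread between libraries. All 10 genes are named in the text. Of each pathway list the 3 genes with the lowest p per region are named, and the 5 genes most like Fkbp5, Sgk1 and Mt1 in expression at a mean log2 CPM of at least 2. One gene that this rule names is not reported here. Among 50-base windows of the transcripts, at most 0.456% (Tsc22d3) occur in another gene. On simulated counts, the fits recovered 199 of 200 genes changed by a fold of 2 in the hippocampal day-night comparison and 127 of 200 in that of the day-night change by condition.

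Alternatives were median-of-ratios scaling, library totals alone, no count filter, DESeq2 1.42.0, the replicate number as a block, leaving out each replicate, marker scores or the log2 total as a covariate, and leaving out genes above 1% of counts. Fits without the 5 libraries of outlying total and with replicate 4 alone were added after the data were seen.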

Additional observations from a re-analysis of the deposited data

Results flagged for a closer look

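In each of the 160 groups of 4 libraries (16 groups for each of the 10 genes), the highest and lowest library were compared with the rest by Dixon's test. In 14 groups a library lay far from the other 3, 9 high and 5 low, where chance would give about 8. The values below are CPM, with the range of the other 3 libraries of the group.

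Fkbp5 was high in hippocampus Night Cogn replicate 3 (92.9, others 28.0 to 31.7) and in frontal cortex Night Ctr1 replicate 3 (61.2, others 34.7 to 37.4), and low in hippocampus Day Cogn replicate 3 (87.2, others 155 to 168). Tsc22d3 was high in frontal cortex Night Ctr0 replicate 2 (26.8, others 15.0 to 15.8). Ddit4 was high in hippocampus Night Soci replicate 3 (17.1, others 8.90 to 9.35) and low in hippocampus Day Ctr1 replicate 1 (7.40, others 18.1 to 20.7). Zbtb16 was high in hippocampus Night Soci replicate 1 (27.3, others 13.4 to 14.5) and in hippocampus Day Cogn replicate 2 (81.2, others 66.7 to 67.9).

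Nr3c1 was high in frontal cortex Night Ctr1 replicate 4 (196, others 167 to 170) and in frontal cortex Day Ctr1 replicate 3 (244, others 193 to 199). Fmo2 was low in hippocampus Night Cogn replicate 1 (1.27, others 2.71 to 3.15) and in hippocampus Day Cogn replicate 1 (8.83, others 16.3 to 17.1). Mt1 was high in frontal cortex Night Ctr1 replicate 2 (9.54, others 4.57 to 4.79). Mt2 was low in hippocampus Night Ctr1 replicate 1 (2.33, others 6.24 to 6.59).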

How the results depend on the processing

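Counts are of genes or pairs past the threshold among those tested. From 6 of 7 in each region, the day-night calls went to 3 in the hippocampus with library totals alone, to 0 in both regions with the border macrophage score, to 2 in both with the astrocyte score, and to 1 and 0 with replicate 4 alone, and ranged from 4 to 7 in the hippocampus and from 4 to 6 in the frontal cortex when each replicate was left out. The call gained without replicate 3 was Klf9 in the hippocampus (-0.35). Condition calls in the hippocampus went from 0 to 4 with library totals alone. Region calls went from 1 to 2 with library totals alone, the endothelial score or the border macrophage score, to 4 with the astrocyte score, and to 0 with the choroid plexus score or replicate 4 alone. Pairs called fell from 9 to between 3 and 8 in the hippocampus and from 12 to between 4 and 9 in the frontal cortex when a replicate was left out. Genes called across regions went from 3 to 0 by Spearman's rho and ranged from 0 to 3 when a replicate was left out.

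Calls over all genes moved by more than 1.5 times in the day-night comparison from 6550 to 649 (border macrophage score), 3253 (astrocyte score), 118 (replicate 4 alone), 4319 (without replicate 1), 4293 (library totals alone) and 4208 (choroid plexus score) in the hippocampus, and from 6266 to 1297, 2651 and 0 (border macrophage score, astrocyte score, replicate 4 alone), 4065 (library totals alone) and 3941 (without replicate 2) in the frontal cortex. In the region comparison they went from 2667 to 260 (choroid plexus score), 1322 (without replicate 2), 1382 (without replicate 3), 1693 (log2 total) and 0 (replicate 4 alone), and the split of 1675 higher and 992 lower in the hippocampus went to 854 and 1685 with library totals alone and to 1419 and 1722 without genes above 1% of counts.

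Signs turned for these log2 values. Day-night: Klf9 to 0.10 and 0.065 (endothelial score), 0.12 and 0.29 (astrocyte score) in the hippocampus and frontal cortex and 0.10 in the frontal cortex (replicate 4 alone), Sgk1 to -0.017 (border macrophage score, hippocampus), Ddit4 to -0.33 and -0.18 (border macrophage score), and Mt2 to 0.17 and 0.14 (astrocyte score). Region: Ddit4 to -0.068 and -0.00077 (without replicate 2 or 4, in a range from -0.068 to 0.38 when each replicate was left out), Fkbp5 to 0.061 and 0.014 (border macrophage score, log2 total) and Fmo2 to -0.20 (choroid plexus score). Day-night by region: Nr3c1 to -0.034, -0.029 and -0.0045 (library totals alone, without replicate 1, border macrophage score), Ddit4 to 0.036, 0.042 and 0.27 (without replicate 1, astrocyte score, replicate 4 alone), Klf9 to 0.039, 0.0016 and 0.030 (without replicate 4, endothelial score, choroid plexus score) and Mt2 to 0.14 and 0.013 (without replicate 4, endothelial score), and when each replicate was left out the range was -0.029 to 0.045 for Nr3c1, -0.31 to 0.036 for Ddit4, -0.22 to 0.039 for Klf9 and -0.22 to 0.14 for Mt2. The cause was not tested.

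With the replicate number as a block, 6 and 6 day-night calls, 1 region call, 0 condition calls, 8 and 12 pairs and 2 genes across regions passed. Whether the numbers pair the libraries was not tested. Day and night libraries of the same number within a region were correlated over all genes, without libraries of different numbers as a reference. Their mean correlation ran from -0.17 to 0.0040 in the hippocampus and from -0.044 to 0.23 in the frontal cortex. Of single values under the alternatives, 677 kept their direction and their side of the threshold, 78 lost their call, 11 gained one and 26 turned in sign. The day-night values of Fkbp5, Zbtb16 and Fmo2 had no threshold. They counted as kept when they shifted by less than the SD within groups, and 4 shifted by more. Precision was limited most for Fmo2, Mt1 and Mt2, with as few as 10 counts in a library (Fmo2, frontal cortex by night).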
